A study of Mus musculus with 18 samples.

Results

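Mossy cell and CA field genes are 10 genes taken as markers of mossy cells and of pyramidal neurons of the CA fields of the hippocampus. All 10 of them were among the 34620 genes listed in the read counts of the ventral dentate gyrus. They were chosen by name and grouped by the cell each was taken to mark: Wfs1, Fibcd1, Pou3f1, Mpped1 and Nov stand for CA1 pyramidal neurons, Bok and Iyd for CA3 pyramidal neurons, and Calb2, Drd2 and Calcrl for mossy cells. The placement of Nov in CA1 and of Iyd in CA3 was not checked against an atlas of expression. All 10 passed the filter on low counts and were among the 17421 genes tested. The RNA came from adult male Swiss Webster mice aged 8 to 12 weeks, drawn from at least 3 litters, and each of the 3 groups had 2 libraries. The labels name the tissue as ventral dentate gyrus, microdissected from frozen sections, and the study describes the cells taken as those of the granule cell layer. WT males had WT mothers and WT grandmothers. F1 males were genetically WT sons of 5HT1A-/+ mothers and had 5HT1A-/+ grandmothers. The study bred them from crosses between heterozygous parents, so that their fathers were 5HT1A-/+ as well. A 5HT1A-/+ female carries 1 functional copy of the gene for the serotonin 1A receptor (Htr1a). F2 males were sons of F1 females and WT males, so that their mothers were WT and their grandmothers 5HT1A-/+. All offspring were WT for the receptor, and the number of animals in a library is not given in the sources used here. Comparisons between groups ask how expression in genetically WT males varied with the genotype of the parents or grandmother. F1 differed from WT and from F2 in the genotype of both mother and father, and the parts of the parents cannot be told apart.

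The dentate gyrus sends its output through granule cells, whose axons, the mossy fibres, run through the hilus to the pyramidal neurons of CA3, which in turn project to CA1. Mossy cells are glutamatergic neurons of the hilus, directly under the granule cell layer. They receive granule cell input and project back to granule cells and to local inhibitory neurons. In the ventral hippocampus CA3 reaches into the hilus between the blades of the dentate gyrus, whereas CA1 is separated from it by the hippocampal fissure. A marker is a matter of degree, and several of these genes are also transcribed elsewhere: Calb2 in interneurons and young granule cells, Calcrl in blood vessels and Drd2 in neurons of the striatum.

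The libraries held 26358165 to 33727936 reads on genes. Levels are given as CPM, read counts scaled to library size by TMM normalization in edgeR, and a gene is called changed when edgeR's exact test gives it a p under 0.01 after Benjamini-Hochberg adjustment over all tested genes. Differences are given as log2 fold changes with standard error. The labels do not say that libraries of a group came from separate animals, so that the p-values measure only the spread between these libraries. An exact permutation test of 2 libraries against 2 cannot give a p under 0.333, and the fit therefore borrows the spread of each gene from all genes. Both F1 and F2 were compared with the same 2 WT libraries. The granule cell markers that define the labelled tissue were present: Prox1, a transcription factor that specifies granule cells, had 228 to 345 CPM, and Calb1, the calcium-binding protein calbindin, 265 to 392 CPM. Htr1a itself was not called, with a log2 fold change of -0.18 in F1 and 0.20 in F2 (edgeR's exact test, adjusted p = 0.332 and 0.266). No library repeated another of its group, with a chi-square per degree of freedom of 19.2 to 24.9 between replicates.

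Transcripts of all 10 genes were present in every library, at levels in CPM above those of 28% (Iyd) to 94.4% (Calb2) of the tested genes. The cells they came from were not determined. On a scale per kilobase of exon (mean RPKM over 6 libraries), Calb2, which encodes the calcium-binding protein calretinin, came first with a level of 112.8 and a range of 73.7 to 143. Bok, a member of the BCL-2 family of apoptosis regulators, followed with 39.2 RPKM (25.9 to 53.4). Mpped1 (13.0 RPKM), Wfs1 (11.2 RPKM) and Nov (10.4 RPKM) had ranges that overlapped each other. Below them came Pou3f1 (4.91 RPKM), Fibcd1 (3.33 RPKM), Iyd (1.87 RPKM), Drd2 (1.80 RPKM) and Calcrl (1.36 RPKM). From Mpped1 downward the ranges of neighbours in this order overlapped, while the lowest level of Calb2 lay above the highest of Bok, and the lowest of Bok above the highest of Mpped1. For comparison, Prox1 had 70.2 RPKM (55.1 to 83.5).

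Across the 6 libraries the level of Nov varied 3.58-fold between the lowest and the highest library, that of Pou3f1 2.57-fold and that of Drd2 1.27-fold, against a median of 1.49-fold over all tested genes. Drd2 was the only one of the 10 genes that varied less than this median.

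**Figure D1:**
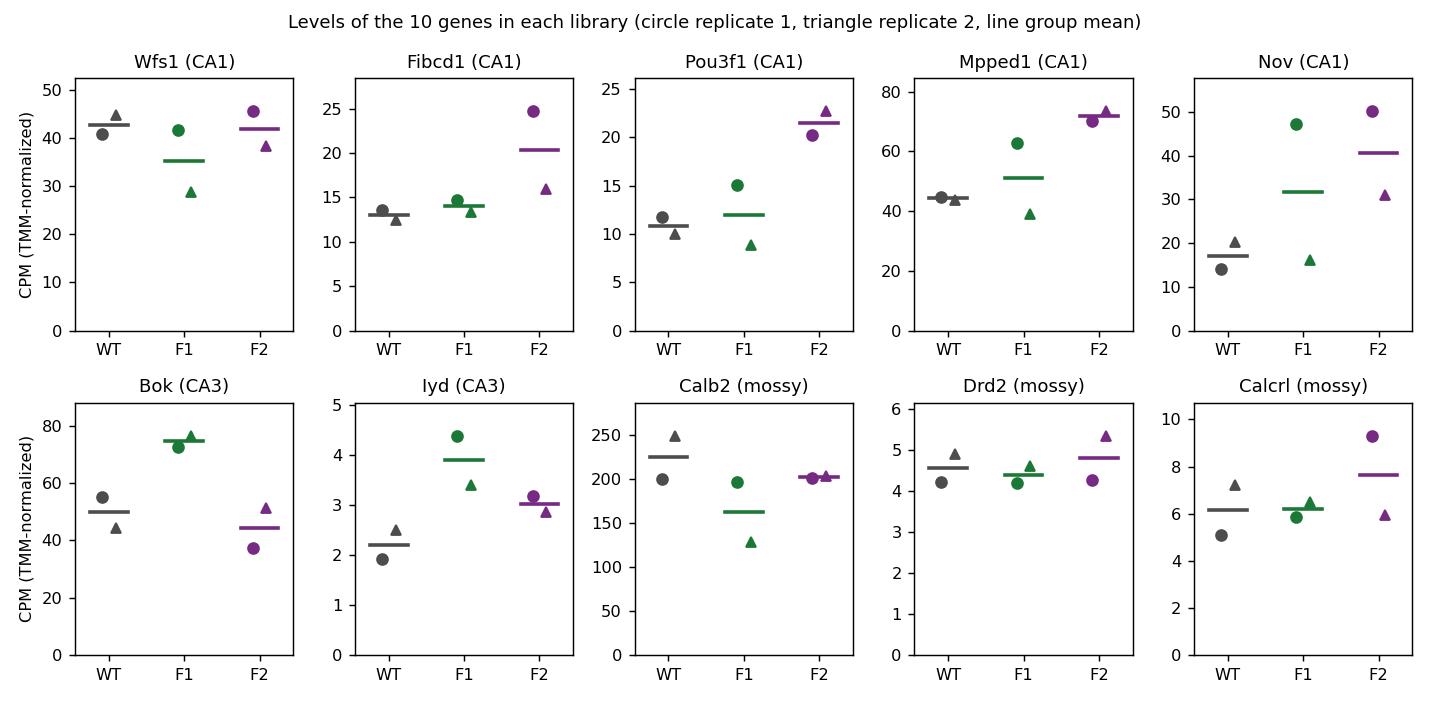
Level of each of the 10 genes in CPM (vertical axes, from 0, with a scale for each gene) in the WT, F1 and F2 libraries. Circles are replicate 1, triangles replicate 2 and lines group means (n = 2). Both F2 libraries lie above both WT libraries for Fibcd1, Pou3f1, Mpped1, Nov and Iyd, and Bok is highest in the F1 libraries.

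Of the 5 CA1 genes, 3 rose in F2 relative to WT and none fell, where 12% of all tested genes were called in either direction and 3.86% were called higher. These were Pou3f1, Mpped1 and Nov, at 1.98-fold, 1.62-fold and 2.37-fold of WT. All 5 genes were chosen with earlier results of these data known, so that their share is not an independent observation. Fibcd1 was 1.56-fold higher in F2 without passing the threshold, and Wfs1 had almost the same mean in F2 as in WT. In F1, none of the 5 passed by edgeR's exact test or its quasi-likelihood test, and 1 of them had an unadjusted p under 0.05 by the latter. The median log2 fold change of the 5 genes was 0.14 in F1 and 0.69 in F2, beside medians over all tested genes of 0.0094 and -4e-04. In bulk RNA, more or fewer cells of a type cannot be told apart from more or less RNA per cell.

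Pou3f1 encodes a POU domain transcription factor, also known as Oct6. It lies on chromosome 4 at chr4:124334896-124337899 (mm9, plus strand) as a single exon, and the annotation places a pseudogene of the same symbol over that exon, so that its counts cannot be separated from that entry. The level was 11.7 and 9.96 CPM in the WT libraries, 15.1 and 8.84 CPM in F1, and 20.2 and 22.7 CPM in F2 (mean 10.8 ± 1.23, 11.9 ± 4.39 and 21.4 ± 1.76, SD, n = 2). Both F2 libraries were above the other 4, and the F1 libraries lay on either side of WT. Pou3f1 rose in F2 with a log2 fold change of 0.98 (standard error 0.23, adjusted p = 0.000299 by edgeR's exact test), and the F1 difference was 0.14 (standard error 0.23, adjusted p = 0.733 by edgeR's exact test). The F2 call was lost without WT replicate 2 (log2 fold change 0.88, adjusted p = 0.0256 by edgeR) and without F2 replicate 2 (0.90, adjusted p = 0.0234 by edgeR). By edgeR's quasi-likelihood test its adjusted p was 0.0111.

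Mpped1, on chromosome 15 at chr15:83609897-83688924 (plus strand), encodes a protein with a metallophosphoesterase domain. Its level was 44.8 and 43.9 CPM in WT, 62.9 and 39.1 CPM in F1, and 70.1 and 73.4 CPM in F2 (mean 44.3 ± 0.663, 51.0 ± 16.8 and 71.8 ± 2.30, SD, n = 2). The libraries of WT and of F2 each lay close together and apart from one another, whereas 1 F1 library was near F2 and the other below WT. Mpped1 rose in F2 by a log2 fold change of 0.69 (standard error 0.18, adjusted p = 0.00136 by edgeR's exact test, 0.0201 by its quasi-likelihood test). Leaving out any 1 of the WT and F2 libraries kept the log2 fold change between 0.67 and 0.73 but raised the adjusted p in edgeR to between 0.0221 and 0.0345.

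Nov encodes a secreted matricellular protein of the CCN family and lies on the same chromosome at chr15:54577257-54585594 (plus strand). Its level was 14.0 and 20.2 CPM in WT, 47.4 and 16.2 CPM in F1, and 50.2 and 30.9 CPM in F2 (mean 17.1 ± 4.36, 31.8 ± 22.02 and 40.5 ± 13.6, SD, n = 2). The F1 libraries differed from each other 2.92-fold, and only 1.38% of the tested genes were as far apart in F1. Nov rose in F2 with a log2 fold change of 1.25 (standard error 0.37, adjusted p = 0.00749 by edgeR's exact test, 0.0467 by its quasi-likelihood test and 0.199 by DESeq2). The F2 call was lost without WT replicate 1 (1.01, adjusted p = 0.174 by edgeR), WT replicate 2 (1.54, adjusted p = 0.0169) or F2 replicate 1 (0.86, adjusted p = 0.227). In F1 the log2 fold change of 0.90 (adjusted p = 0.067 by edgeR's exact test) became 1.48 without F1 replicate 2 and -0.06 without F1 replicate 1.

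Fibcd1, which encodes a membrane protein with a fibrinogen C domain that binds chitin, lies on chromosome 2 at chr2:31668810-31701525 (minus strand). The level was 13.6 and 12.5 CPM in WT, 14.8 and 13.4 CPM in F1, and 24.7 and 15.9 CPM in F2. The F2 libraries were both higher than the other 4 and differed 1.55-fold from each other. The log2 fold change in F2 of 0.64 (standard error 0.21) had an adjusted p of 0.0145 by edgeR's exact test. It was 0.93 without F2 replicate 2 (adjusted p = 0.000362 by edgeR) and 0.29 without F2 replicate 1 (adjusted p = 0.503), and at 0.65 it passed the threshold without F1 replicate 1 (adjusted p = 0.00983) or F1 replicate 2 (adjusted p = 0.00956).

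Wfs1 encodes wolframin, a membrane protein of the endoplasmic reticulum, and is a widely used marker of CA1. It is on chromosome 5 at chr5:37357343-37380221 (minus strand). Its level was 40.7 and 44.7 CPM in WT, 41.7 and 28.7 CPM in F1, and 45.5 and 38.2 CPM in F2. Only F1 replicate 2 stood below the rest. The log2 fold changes were -0.28 in F1 (95% interval -0.61 to 0.06, adjusted p = 0.257 by edgeR's exact test) and -0.03 in F2 (95% interval -0.36 to 0.31, adjusted p = 0.946). Without F1 replicate 1 the F1 difference was -0.56, and without F1 replicate 2 it was -0.02.

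All 5 CA1 genes were lower in F1 replicate 2 than in F1 replicate 1, by 1.10-fold for Fibcd1, 1.45-fold for Wfs1, 1.61-fold for Mpped1, 1.70-fold for Pou3f1 and 2.92-fold for Nov. The summed level of the 5 genes was 125 and 131 CPM in WT, 182 and 106 CPM in F1, and 211 and 181 CPM in F2, so that F1 replicate 1 lay with the F2 libraries and F1 replicate 2 below WT. Over the 6 libraries, the log2 levels of Mpped1 and Pou3f1 had a Pearson r of 0.9783, and those of Mpped1 and Nov of 0.8603, whereas Wfs1 had an r of 0.3789 to 0.4795 with the other 4 CA1 genes, and the remaining 4 pairs had 0.7146 to 0.7497. These correlations describe 6 points that share the group structure, and no p is given for them. Between F2 and F1 directly, where 0.740% of all tested genes were called, none of the 5 CA1 genes passed by edgeR's exact test or its quasi-likelihood test, and 3 had an unadjusted p under 0.05 by the latter. The largest of these differences was in Pou3f1, with a log2 fold change of 0.84 (adjusted p = 0.0214 by edgeR's exact test). It was 1.28 without F1 replicate 1 and 0.51 without F1 replicate 2. Without F2 replicate 1 the Pou3f1 difference was 0.93, and without F2 replicate 2 it was 0.76.

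The sequences directly upstream of Pou3f1 and Mpped1, which varied together, and of Bok, which varied in another way, are shown because the study also measured DNA methylation, in samples not analysed here, and methylation falls mainly on cytosines followed by guanine. Each is the 250 bases before the annotated start, 5′ to 3′ on the strand of the gene (mm9), with CG pairs in capitals. The windows are chr4:124334646-124334895, chr15:83609647-83609896 and chr1:95582021-95582270, all on the plus strand.
Pou3f1: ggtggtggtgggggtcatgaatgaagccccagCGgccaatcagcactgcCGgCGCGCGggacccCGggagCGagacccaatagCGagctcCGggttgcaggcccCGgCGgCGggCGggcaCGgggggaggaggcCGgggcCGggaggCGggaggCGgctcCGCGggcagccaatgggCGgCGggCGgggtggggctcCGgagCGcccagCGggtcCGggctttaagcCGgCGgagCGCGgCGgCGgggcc
Mpped1: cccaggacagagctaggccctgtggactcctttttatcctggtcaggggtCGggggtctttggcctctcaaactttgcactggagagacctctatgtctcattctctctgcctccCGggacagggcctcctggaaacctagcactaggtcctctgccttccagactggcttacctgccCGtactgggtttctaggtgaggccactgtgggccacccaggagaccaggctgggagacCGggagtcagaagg
Bok: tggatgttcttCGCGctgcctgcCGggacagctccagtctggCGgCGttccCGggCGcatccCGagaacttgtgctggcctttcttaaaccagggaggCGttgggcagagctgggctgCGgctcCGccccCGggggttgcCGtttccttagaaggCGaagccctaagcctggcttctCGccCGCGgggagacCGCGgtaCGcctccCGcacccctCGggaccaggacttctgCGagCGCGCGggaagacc
The window of Pou3f1 held 33 CG pairs with a GC content of 79.2%, that of Bok 26 CG pairs with 68.4%, and that of Mpped1 4 CG pairs with 59.6%. Over the windows of 22350 protein-coding genes the median was 8 CG pairs, with quartiles of 3 and 18, and the median GC content 54.0%. Pou3f1 and Mpped1, whose levels varied together, differed in CG content. The octamer ATGCAAAT, the motif of POU factors, was searched on both strands and was in none of the 10 windows, against 1.62% of all windows. Its absence says only that these letters are not in these windows.

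Of the 2 CA3 genes, Bok rose 1.49-fold in F1 relative to WT, where 12.3% of all tested genes were called in either direction and 3.77% were called higher, and it was lower in F2 than in F1, where 0.436% were called lower. It was the only gene of the 10 called in F1, and the only one called between F2 and F1. Iyd was 1.77-fold higher in F1 and did not pass. In F2 neither gene passed by edgeR's exact test or its quasi-likelihood test, and neither had an unadjusted p under 0.05 by the latter.

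Bok lies on chromosome 1 at chr1:95582271-95592339 (plus strand). Its level was 55.2 and 44.5 CPM in WT, 72.5 and 76.5 CPM in F1, and 37.2 and 51.2 CPM in F2 (mean 49.8 ± 7.56, 74.5 ± 2.83 and 44.2 ± 9.90, SD, n = 2). Both F1 libraries were above the other 4, and the WT and F2 libraries overlapped. The log2 fold change was 0.58 in F1 (standard error 0.16, adjusted p = 0.00293 by edgeR's exact test) and -0.17 in F2 (standard error 0.16, adjusted p = 0.49). From F1 to F2 it fell by 0.75 on the log2 scale (standard error 0.16, adjusted p = 0.000576 by edgeR's exact test).

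By edgeR's quasi-likelihood test the adjusted p of Bok was 0.0228 in F1 and 0.0758 between F2 and F1. The call in F1 was lost without WT replicate 2 (log2 fold change 0.44, adjusted p = 0.105 by edgeR) and without F1 replicate 2 (0.55, adjusted p = 0.0415), and that between F2 and F1 without F1 replicate 2 (-0.71, adjusted p = 0.0131) and without F2 replicate 1 (-0.54, adjusted p = 0.304).

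Iyd encodes iodotyrosine deiodinase, an enzyme that salvages iodide in the thyroid, and lies on chromosome 10 at chr10:6791664-6806301 (minus strand). It had few reads, between 65 and 133 in a library. The level was 1.91 and 2.50 CPM in WT, 4.39 and 3.40 CPM in F1, and 3.18 and 2.86 CPM in F2. All F1 and F2 libraries were above both WT libraries. The log2 fold changes were 0.83 in F1 (standard error 0.26, adjusted p = 0.0156 by edgeR's exact test) and 0.46 in F2 (standard error 0.27, adjusted p = 0.256). The F1 difference was 0.64 without WT replicate 1 and 1.03 without WT replicate 2. It was 0.64 without F1 replicate 1 and 1.01 without F1 replicate 2.

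**Figure D2:**
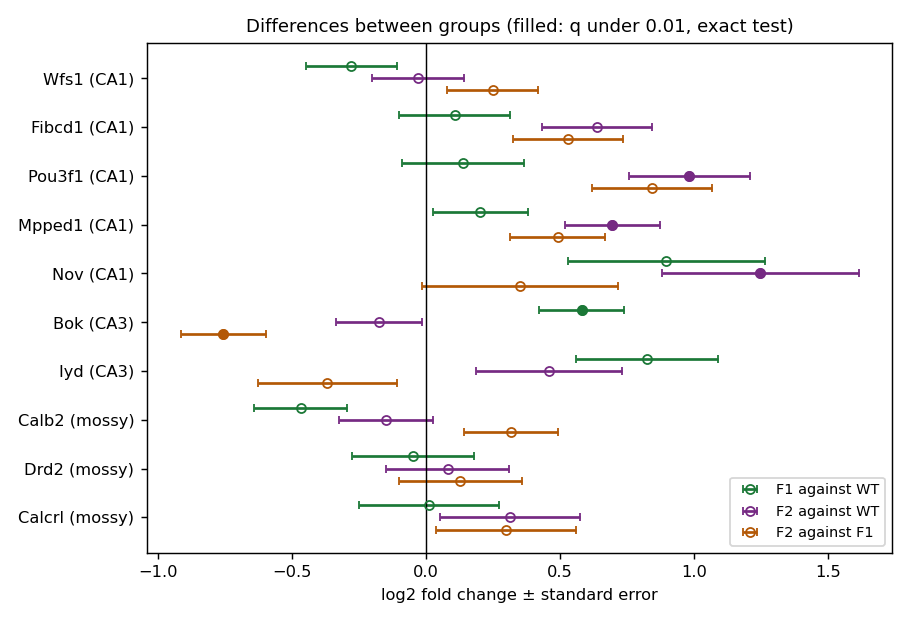
Log2 fold changes of the 10 genes (horizontal axis) with standard errors (bars), for F1 against WT, F2 against WT and F2 against F1. Filled symbols have an adjusted p under 0.01 by edgeR's exact test: Pou3f1, Mpped1 and Nov in F2, and Bok in F1 and between F2 and F1.

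None of Calb2, Drd2 and Calcrl, the 3 mossy cell genes among the 10, was called in F1, in F2 or between F2 and F1 by edgeR's exact test or its quasi-likelihood test, and by the latter 1 gene had an unadjusted p under 0.05 in F1 and none in the other comparisons. The median log2 fold change of the 3 genes was -0.05 in F1 and 0.08 in F2. Calb2 had the lowest mean in F1, and Drd2 hardly varied.

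Calb2 lies on chromosome 8 at chr8:112661402-112692110 (minus strand), and its level exceeded that of 94.4% of the tested genes in CPM. It was 199.97 and 249 CPM in WT, 196 and 128 CPM in F1, and 201 and 203 CPM in F2. F1 replicate 2 stood below the other libraries, as it did for Wfs1, and the Pearson r of Calb2 and Wfs1 over 6 libraries was 0.914 on the log2 scale. The log2 fold change was -0.47 in F1 (95% interval -0.81 to -0.12, adjusted p = 0.0399 by edgeR's exact test) and -0.15 in F2 (95% interval -0.49 to 0.19, adjusted p = 0.602). Without F1 replicate 1 it was -0.79 in F1 (adjusted p = 3.27e-05 by edgeR), and without F1 replicate 2 it was -0.18 (adjusted p = 0.522).

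Interneurons and young granule cells also express Calb2, and the values of their markers were as follows. The summed level of 9 interneuron genes was 903 and 951 CPM in WT, 1183 and 899 CPM in F1, and 963 and 1071 CPM in F2. That of 6 genes of immature granule cells ranged from 328 to 406 CPM over all libraries, and none of these 6 was called by edgeR's exact test or, at an unadjusted p under 0.05, by its quasi-likelihood test. Of the interneuron genes, the vesicular GABA transporter gene Slc32a1 rose in F1 (log2 fold change 0.65) and in F2 (0.61), with adjusted p-values of 2.39e-05 and 0.000129 by edgeR's exact test, and Gad2 (0.56, adjusted p = 0.000268) and Reln (0.49, adjusted p = 0.00875) rose in F2. Without F1 replicate 1 there were 3 calls in F1, and without WT replicate 1, WT replicate 2 or F2 replicate 2 there was 1 in F2. Gad1, which like Gad2 encodes a GABA-synthesizing enzyme, had log2 fold changes of 0.10 and 0.25 and was not called. Vip had 0.05 in F1 and 0.32 in F2, Cck 0.27 and -0.04, and Pvalb 0.02 and -0.01. Sst had 0.03 and -0.39, Npy -0.15 and -0.31, and none of these was called. The level of Sst was 217 and 82.2 CPM in F1. Over all tested genes, 3.77% in F1 and 3.86% in F2 were called higher. The part of interneurons and young granule cells in the level of Calb2 was not tested.

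Drd2, the dopamine D2 receptor gene, lies on chromosome 9 at chr9:49148732-49216282 (plus strand). Its level was 4.21 and 4.89 CPM in WT, 4.19 and 4.60 CPM in F1, and 4.26 and 5.35 CPM in F2, and the libraries of the 3 groups overlapped. The log2 fold changes were -0.05 in F1 (95% interval -0.49 to 0.40, adjusted p = 0.936 by edgeR's exact test) and 0.08 in F2 (95% interval -0.37 to 0.53, adjusted p = 0.87). The same RNA held transcripts of 6 genes typical of striatal neurons, with summed levels of 48.8 and 51.9 CPM in the WT libraries, 65.5 and 65.7 CPM in those of F1, and 65.4 and 67.7 CPM in those of F2. Most of it was Ppp1r1b, the gene of the dopamine-regulated phosphatase inhibitor DARPP-32, which rose in F1 (log2 fold change 0.70) and in F2 (0.61), with adjusted p-values of 1.37e-06 and 3.99e-05 by edgeR's exact test, and it was the only gene of that list called. Rgs9, a regulator of G protein signalling, had log2 fold changes of -0.36 and -0.13.

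Calcrl encodes the receptor that binds calcitonin gene-related peptide or adrenomedullin, depending on the RAMP protein it pairs with. It lies on chromosome 2 at chr2:84170783-84265568 (minus strand). The level was 5.09 and 7.22 CPM in WT, 5.88 and 6.51 CPM in F1, and 9.31 and 5.94 CPM in F2. F2 replicate 1 was the highest library and F2 replicate 2 lay within the WT range. The log2 fold changes were 0.01 in F1 (95% interval -0.50 to 0.53) and 0.31 in F2 (95% interval -0.20 to 0.82), with adjusted p-values of 1 and 0.447 by edgeR's exact test.

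Among 6 genes of the partners and ligands of Calcrl, only Ramp3 was called. Its level was 4.74 and 3.13 CPM in WT, 5.64 and 12.2 CPM in F1, and 8.34 and 11.6 CPM in F2, above WT in all 4 libraries. It rose in F1 (log2 fold change 1.18, standard error 0.33, adjusted p = 0.00521 by edgeR's exact test, 0.0325 by its quasi-likelihood test) and in F2 (1.34, standard error 0.33, adjusted p = 0.00117 and 0.0199). Ramp1 was the most abundant partner, at 76.3 to 94.0 CPM, and Ramp2 had 24.1 to 38.7 CPM, and neither was called. The call of Ramp3 in F1 was lost without WT replicate 1, WT replicate 2 or F1 replicate 2, and that in F2 without WT replicate 2 or F2 replicate 2.

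Blood vessels also express Calcrl, and 6 endothelial genes together had 77.8 and 85.6 CPM in WT, 87.3 and 109 CPM in F1, and 113 and 110 CPM in F2. Pecam1, an adhesion molecule of endothelial cells, rose in F2 (log2 fold change 0.97, adjusted p = 0.000137 by edgeR) and was the only gene of this list called in either comparison. Without F1 replicate 1 there were 2 calls in F1, and without F2 replicate 1 there was none in F2. The part of these cells in the level of Calcrl was not tested.

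Counted over libraries, 3 of the 10 genes did not overlap between F1 and WT, against 60.4% of all tested genes: Bok and Iyd were above WT in both F1 libraries and Calb2 below it. Between F2 and WT 5 of 10 did not overlap, against 63.0% of all tested genes, and all 5 were higher in F2. Between F2 and F1 it was 6 of 10, against 39.1%, with Fibcd1, Pou3f1, Mpped1 and Calb2 higher and Bok and Iyd lower in F2. By edgeR's exact test, 1 of the 10 was called in F1, 3 in F2 and 1 between F2 and F1. The shares of all tested genes called in either direction were 12.3%, 12% and 0.740%. The 10 genes were chosen with earlier results of these data known, which limits any comparison with these shares. Those of the 10 called in F1 and F2 were all higher. Of all tested genes, 3.77% in F1 and 3.86% in F2 were called higher, and 8.54% and 8.10% lower. The quasi-likelihood test called none of the 10 in any comparison, against 5.91%, 5.72% and 0.0115% of all tested genes. At an unadjusted p under 0.05 this test gave 4 of the 10 in each comparison, against 33.3%, 33.2% and 9.01%. With a threshold of 0.05 for the exact test, 3 of the 10 were called in F1, 4 in F2 and 2 between F2 and F1, against 20.8%, 20.7% and 1.32%. Without F1 replicate 1, 5 of the 10 were called between F2 and F1 by edgeR's exact test, namely Pou3f1, Mpped1, Nov and Calb2 as higher in F2 and Bok as lower, and without F1 replicate 2 or F2 replicate 1 none was.

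A list of 7 further genes of the pyramidal neurons of the CA fields varied in more than 1 way. Of these, Cpne4 and Pvrl3 rose in F1, Pvrl3 fell in F2, and the other genes were not called in these comparisons. By edgeR's quasi-likelihood test none of the 7 was called, and 4 in F1 and 4 in F2 had an unadjusted p under 0.05. Pvrl3, a nectin that CA3 neurons use at contacts with mossy fibres, had 41.7 and 41.0 CPM in WT, 59.4 and 58.8 CPM in F1, and 22.1 and 31.2 CPM in F2. The 3 groups did not overlap, with F1 highest and F2 lowest. Its log2 fold change was 0.51 in F1 (adjusted p = 0.00666 by edgeR's exact test) and -0.64 in F2 (adjusted p = 0.000698), and -1.15 between F2 and F1 (standard error 0.15, adjusted p = 3.72e-10).

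Neurod6, a transcription factor of CA pyramidal neurons, had 121 and 160 CPM in WT, 183 CPM in both F1 libraries, and 85.1 and 120 CPM in F2. It did not pass in F1 (log2 fold change 0.38, adjusted p = 0.0841 by edgeR's exact test) or in F2 (-0.46, adjusted p = 0.0346), but was lower in F2 than in F1 (-0.84, adjusted p = 0.000172). Cpne4, a copine, which binds membranes in the presence of calcium, had 90.1 and 92.7 CPM in WT, 116 and 153 CPM in F1, and 94.3 and 97.5 CPM in F2, and rose in F1 (0.56, adjusted p = 0.000832 by edgeR's exact test), with a log2 difference between F2 and F1 of -0.49 (adjusted p = 0.0367). As for Bok, both F1 libraries were above the other 4 for Pvrl3, Neurod6 and Cpne4, but not for the other 4 genes of the list. These are given to complete the list and were not called. Grik4, a kainate receptor subunit gene, had 90.4 and 86.9 CPM in WT, 84.3 and 82.4 CPM in F1, and 72.6 and 67.2 CPM in F2, below WT in all 4 libraries (log2 fold change -0.09 in F1 and -0.34 in F2, adjusted p = 0.643 and 0.0199 by edgeR's exact test). The log2 fold changes in F1 and F2 were 0.61 and 0.60 for Man1a, 0.41 and 0.47 for Spink8, and -0.21 and 0.38 for Dcn. The calls of this list were lost in fits without 1 library: in F1 none was left without WT replicate 1, WT replicate 2 or F1 replicate 2, and 1 without F1 replicate 1, and in F2 none was left without WT replicate 1, WT replicate 2 or F2 replicate 1, and there were 2 without F2 replicate 2.

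**Figure D3:**
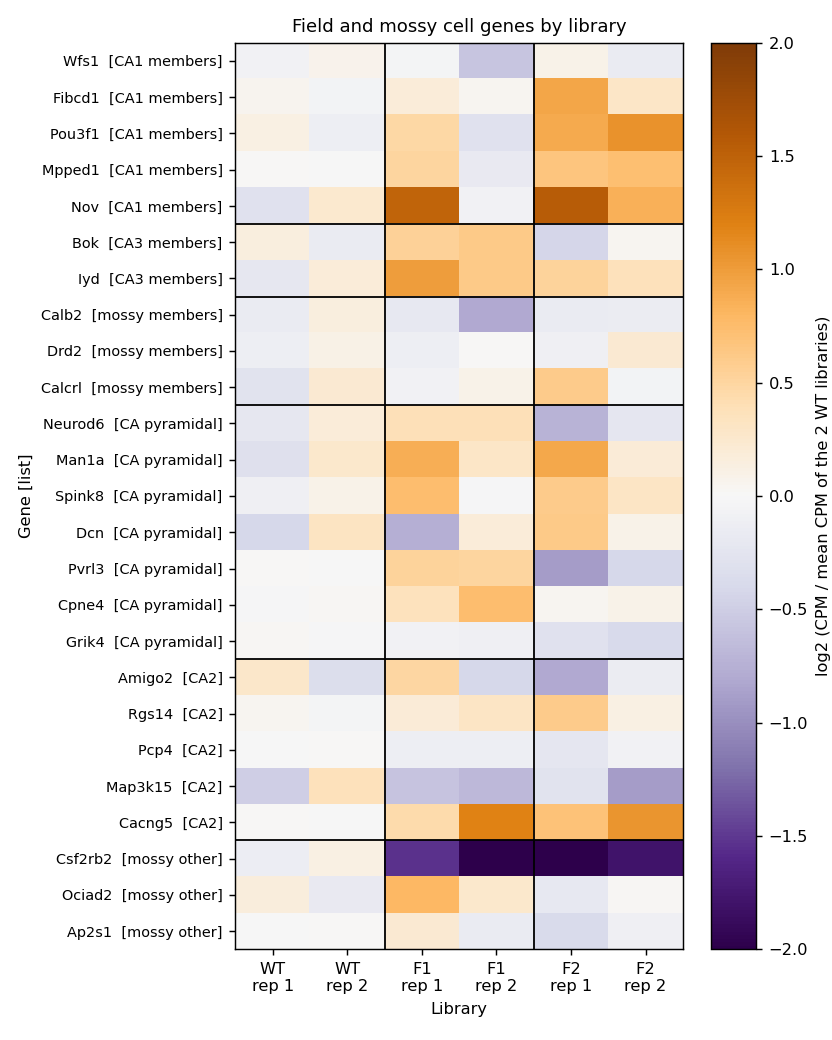
Log2 ratio of each gene's CPM to the mean of the 2 WT libraries (colour, orange above and purple below WT, limited to ±2) for the 10 genes and the further CA and mossy cell genes (vertical axis) in the 6 libraries (horizontal axis). Nov, Pou3f1 and Mpped1 are orange in both F2 libraries, Bok, Pvrl3, Neurod6 and Cpne4 in both F1 libraries, and Csf2rb2 is purple in all 4.

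For the CA2 field, which lies between CA3 and CA1, 5 genes together ranged from 301 to 311 CPM over the 6 libraries. Cacng5, an auxiliary subunit of AMPA receptors, rose in F1 (log2 fold change 0.86, adjusted p = 0.00748 by edgeR's exact test, 0.0287 by its quasi-likelihood test) and in F2 (0.89, adjusted p = 0.00593 and 0.0268), and was the only CA2 gene called. It was not called in F1 without any 1 of the libraries other than F1 replicate 1, nor in F2 without WT replicate 1, WT replicate 2 or F2 replicate 1. Pcp4, a regulator of calmodulin, had 176 to 206 CPM, and Rgs14, which limits plasticity in CA2 neurons, 69.5 to 108 CPM. Amigo2 had 13.5 to 33.0 CPM, with log2 fold changes of 0.10 in F1 and -0.44 in F2, and Map3k15 had 0.56 to 1.34 CPM. Most of the summed level was thus Pcp4, and the sum does not show how the other genes varied.

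Of 3 further genes listed for mossy cells, Csf2rb2 fell in both comparisons. It encodes a receptor subunit for interleukin 3, and reads that also match its near-identical paralog Csf2rb are not counted, so that its level is uncertain. Its level was 14.4 and 17.1 CPM in WT, 5.45 and 3.24 CPM in F1, and 3.18 and 4.57 CPM in F2, without overlap with WT. It fell by 1.86 on the log2 scale in F1 (standard error 0.26, adjusted p = 2.63e-10 by edgeR's exact test) and by 2.02 in F2 (standard error 0.26, adjusted p = 1.01e-11), and it was also called by the quasi-likelihood test in both (adjusted p = 0.000752 and 0.000607). Ap2s1, a subunit of the clathrin adaptor AP-2, had log2 fold changes of 0.04 and -0.23, and Ociad2 of 0.55 (adjusted p = 0.0121 by edgeR's exact test) and -0.08.

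Markers of other cells moved between the libraries as well. The 10 granule cell genes together had 1401 and 1393 CPM in WT, 1121 and 1365 CPM in F1, and 1599 and 1477 CPM in F2, lowest in F1 replicate 1. Trpc6, Sema5b and Plk5 of this list fell in both F1 and F2, with log2 fold changes of -0.998, -0.64 and -0.61 in F1 (adjusted p = 4.92e-09, 0.000198 and 0.000161 by edgeR) and -0.71, -0.73 and -0.47 in F2 (adjusted p = 7.23e-05, 1.79e-05 and 0.00521 by edgeR). Over the fits without 1 library there were 2 to 5 calls in this list in F1, with 5 without F1 replicate 1, and 1 to 4 in F2, with 1 without WT replicate 1 or F2 replicate 2. Prox1 had -0.10 and 0.32 and was not called. Over the 10 granule cell genes the log2 fold change ranged from -0.998 to 0.70 in F1, with a median of -0.20. In F2 it ranged from -0.73 to 0.64, with a median of 0.14. Of all tested genes, 8.54% in F1 and 8.10% in F2 were called lower.

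The 10 oligodendrocyte genes together had 1106 and 2010 CPM in WT, 2994 and 2257 CPM in F1, and 1547 and 2919 CPM in F2, and 3 of them were called in F1 (Cldn11, Cnp and Mag) and 2 in F2 (Cldn11 and Cnp), all higher. Of 5 astrocyte genes, 1 rose in F1 (Aldh1l1) and 3 in F2 (Aldh1l1, Gfap and Gja1), and their summed level was 794 and 890 CPM in WT, 947 and 1275 CPM in F1, and 1391 and 1087 CPM in F2. For 5 microglial genes the summed levels were 104 and 105 CPM in WT, 123 and 144 CPM in F1, and 161 and 139 CPM in F2, and 4 of them rose in F2. The summed levels of these 3 lists were above both WT libraries in all F1 and F2 libraries except that of the oligodendrocyte genes in F2 replicate 1. The quasi-likelihood test called 1 astrocyte gene in F2 and no other gene of these lists in F1 or F2, while 6, 4 and 3 genes in F1 and 5 of each list in F2 had an unadjusted p under 0.05. Over all tested genes, 33.3% in F1 and 33.2% in F2 had such an unadjusted p. The exact test called 3.77% of all tested genes higher in F1 and 3.86% in F2. DESeq2 called 0, 1 and 0 genes of these lists in F1 and 0, 3 and 3 in F2. Over the fits without 1 library, there were 0 to 8 in oligodendrocyte genes in F1 and 0 to 5 in F2, 0 to 2 and 0 to 4 in astrocyte genes, and 0 to 2 and 0 to 4 in microglial genes. The part of glia and vessels in the levels of the CA1 and CA3 genes was not tested.

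Neighbouring structures could also be read from short lists. Of the 6 choroid plexus genes, 3 were too low to be tested and none was called, and their summed level was 17.6 to 23.0 CPM. Most of this sum was Kl, with 13.6 to 18.7 CPM, whereas Ttr had 0.19 to 1.10 CPM. For the subiculum, which borders CA1, Fn1 had 13.2 to 20.8 CPM, and Nts, the neurotensin gene, had 9.36 CPM in F2 replicate 2 and 1.26 to 2.18 CPM in the other 5 libraries. Neither was called by edgeR's exact test or its quasi-likelihood test, and both had an unadjusted p under 0.05 by the latter in F2.

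**Figure D4:**
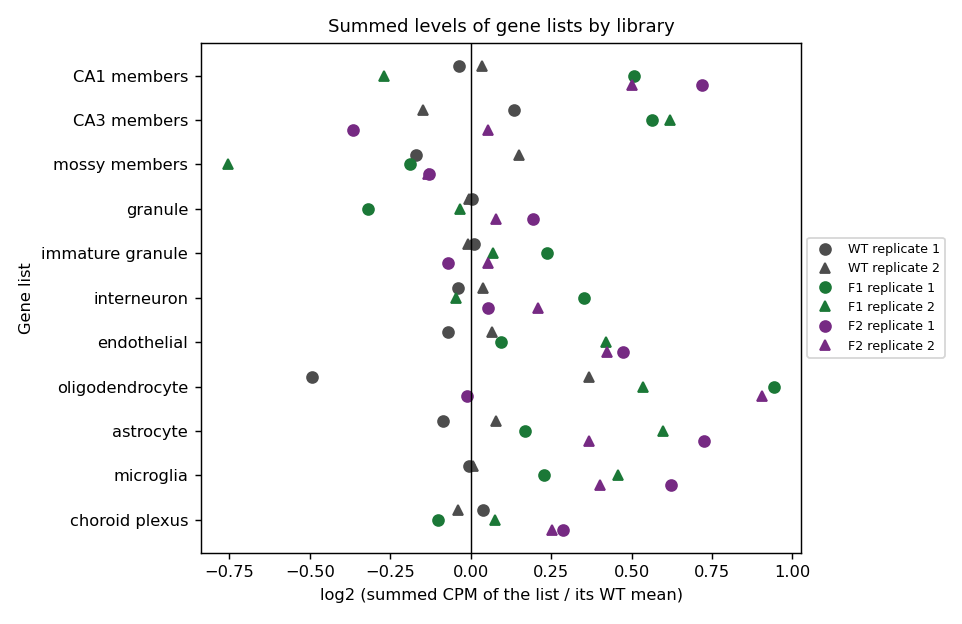
Log2 ratio of the summed CPM of each gene list to its WT mean (horizontal axis) for each library, with lists on the vertical axis, circles for replicate 1 and triangles for replicate 2. The CA1 genes of F1 replicate 2 lie at -0.27 and those of F1 replicate 1 at 0.51, whereas the CA3 genes of both F1 libraries lie at 0.56 and 0.62.

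Genes with a pattern most like that of the most abundant gene of each field were sought among 13678 genes with at least 50 counts on average, by Pearson r of log2 CPM over 6 libraries. For Mpped1 these were Zc4h2 (r = 0.9945), Smyd3 (0.9788) and Vip (0.9787), and 15 genes in all had an r over 0.95. Zc4h2 moved over a smaller range than Mpped1, from 22.4 to 25.9 CPM. For Bok they were Mkks (0.9955), Eif2s1 (0.9951) and Cabp7 (0.9932), with 58 genes over 0.95. Cabp7, which encodes a calcium-binding protein of neurons, had 158 and 139 CPM in WT, 204 and 213 CPM in F1, and 121 and 162 CPM in F2. For Calb2 they were Paqr6 (0.9933), Brp44l (0.9909) and the ribosomal protein gene Rpl21 (0.9894), with 45 genes over 0.95. With 6 libraries in 3 groups and so many genes compared, correlations of this size describe these libraries only.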

How the data were processed

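The authors prepared RNA-Seq libraries from microdissected ventral dentate gyrus with an unstranded TruSeq RNA kit and aligned single-end reads to mm9 with TopHat (TopHat2 2.0.2 and Bowtie 1.0.0 in the submitters' processing notes). Deposited are read counts by gene symbol, obtained with HTSeq (intersection-strict mode) and not normalized. Reads on no gene (9.18 to 14.2% of all) and reads that aligned to several places (25.1 to 33.2%) are not among them. The annotation and the strand setting of the counting are not given in the sources used here, and without strand the reads of antisense genes cannot be told apart. Bisulfite sequencing samples of the series were not analysed here.

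Groups were taken from the labels. The fit used edgeR 4.0.16 (R 4.3.3): filterByExpr, TMM scaling, a common and then a tagwise dispersion over all 6 libraries (common coefficient of variation 10.6%), and the exact test, with an adjusted p under 0.01 as the threshold. Standard errors and 95% intervals were derived from mean counts and tagwise dispersions. The procedure was tested on simulated data. As alternatives, edgeR's quasi-likelihood test and likelihood-ratio test, DESeq2 1.42.0, a block for the replicate number, a dispersion estimated from only the 2 groups compared, other scalings and filters, a threshold of 0.05 and the omission of single libraries were run. Of the 34620 symbols, 33294 were matched in GENCODE M1 (mm9), which gave the positions and exon lengths of the listed genes. Upstream sequence was taken from the mm9 genome at the annotated starts of 22350 protein-coding genes. Python 3.11.15, with pandas 2.3.3 and matplotlib 3.10.9, made the tables and figures. Genes named are the 10 genes, the called genes and the 2 most abundant genes of each list, the 3 genes most like the most abundant gene of each field, and Htr1a. For some lists, further genes are named to show how the rest of the list varied. The 10 genes and all lists were chosen with earlier results of these data known, and 1 gene of a list is not reported here.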

Additional observations from a re-analysis of the deposited data

Results flagged for a closer look

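Bok was singled out because its difference between F2 and F1 was itself past the threshold: the log2 fold change was -0.75 (adjusted p = 0.000576 by edgeR's exact test, 0.0758 by its quasi-likelihood test), from 74.5 ± 2.83 CPM (SD, n = 2) in F1 to 44.2 ± 9.90 CPM in F2. Both F2 libraries were below both F1 libraries.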

How the results depend on the processing

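Each group had only 2 libraries, and the least covered of the 10 genes, Iyd, had 65 to 133 reads in a library. Of the 10 genes, 1 was called in F1, 3 in F2 and 1 between F2 and F1. A threshold of 0.05 gave 3 in F1 and 2 between F2 and F1. The quasi-likelihood test gave 0, 0 and 0, and with the replicate block 0, 1 and 0. Leaving out 1 library gave 0 to 3 calls in F1, 0 to 4 in F2 and 0 to 5 between F2 and F1. The cause was not tested. The replicate numbers did not pair the libraries: across genes, the differences between replicates 1 and 2 of WT had a correlation of -0.0317 with those of F1 and -0.0821 with those of F2, and those of F1 and F2 had -0.177 with each other. A likelihood-ratio test with the replicate block gave 1, 3 and 1 calls, and, in a setting added after seeing the data, crossing the numbers of F2 gave 1, 3 and 2.

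Outside the fits without 1 library, only Calcrl changed sign, in F1, to -0.0116 with total counts and -0.0204 with at least 50 counts on average. In those fits the log2 fold change in F1 ranged from -0.22 to 0.29 for Calcrl, -0.15 to 0.0738 for Drd2, -0.28 to 0.48 for Pou3f1, -0.17 to 0.51 for Mpped1 and -0.0608 to 1.48 for Nov. In F2 it ranged from -0.0859 to 0.24 for Drd2, -0.15 to 0.10 for Wfs1, -0.29 to 0.0268 for Calb2, -0.42 to 0.0428 for Bok and -0.041 to 0.61 for Calcrl. Between F2 and F1 it ranged from -0.22 to 1.32 for Nov, -0.0566 to 0.59 for Calcrl and -0.0458 to 0.29 for Drd2.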
